A study of Homo sapiens with 8 samples.

Results

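Sorafenib-resistant SK-Hep1 cells in which COL6A3 was silenced were compared with sorafenib-sensitive SK-Hep1 cells, to see which differences from sensitive cells persisted after silencing, which vanished and which appeared. The compared samples were the 2 libraries labelled SR_siCOL6A3 and the 2 labelled SS_siCtrl, 4 of the 8 libraries in the series. Their genes were the 15684 of 28278 named genes that passed a low-count filter. The 2 libraries of resistant cells with control siRNA (SR_siCtrl) served to tell the kinds of difference apart. Silenced resistant cells carried COL6A3 siRNA, and both control groups carried control siRNA, so silenced resistant and sensitive cells differed in resistance and in siRNA at once. The remaining 2 libraries, of silenced resistant cells given recombinant human endotrophin (SR_siCOL6A3_rhETP), entered the low-count filter, the scaling and the estimate of the spread, but no comparison. All groups were the same line in serum-containing medium, with no genetic change named. SK-Hep1, established from a human liver tumour, is known for its endothelial features, and here 1 resistant and 1 sensitive population stand for the drug response. The sources used here give neither how resistance was obtained, nor the siRNA sequences, nor any sorafenib in the medium at harvest. The labels call the libraries biological replicates of a single batch and do not say that they came from separate cultures, so p-values measure only the spread between these libraries.

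Sorafenib blocks several kinases and is given in advanced liver cancer. Collagen VI forms beaded filaments in the matrix from chains encoded by COL6A1, COL6A2 and COL6A3, and a fragment cut from the end of the COL6A3 chain is called endotrophin. CD44, a surface receptor for hyaluronan, is named beside endotrophin in the title of the series. Tumour cells build and cut their own matrix, and matrix contacts through integrins feed into growth and survival signalling.

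Library totals were 31072043 and 35702856 counts in silenced resistant cells, 30461668 and 31569154 in resistant control cells, and 37096702 and 31476743 in sensitive cells. Levels are given as CPM, counts scaled to the size of their library. Pearson's r of log2 CPM over genes, which share their libraries and are no replicates, was 0.9897 within silenced resistant cells and 0.9841 within sensitive cells, against 0.96 to 0.9646 between them. The defining endothelial markers were nearly silent in both: PECAM1, KDR and CLDN5 were at 0 CPM in both silenced resistant libraries, and PECAM1 reached 0.14 CPM at most in sensitive cells. Other endothelial genes were expressed. The 24 markers together held 213 and 269 CPM in silenced resistant cells, 294 and 305 CPM in resistant control cells, and 346 and 359 CPM in sensitive cells. Of the 11 tested, 1 rose, 3 fell and 7 did not pass in silenced resistant against sensitive cells. The rise was that of ROBO4, at 38.9 and 48.2 CPM against 26.4 and 22.6 CPM. ALB and TTR, which define hepatocytes, were at 0 CPM in all 6 libraries. The 29 hepatocyte markers together held 74.2 and 67.8 CPM in silenced resistant cells, 51.2 and 65.4 CPM in resistant control cells, and 45.2 and 34.1 CPM in sensitive cells; of the 6 tested, 2 rose (SERPINA1 and CPS1) and 0 fell in silenced resistant against sensitive cells. The 20 leukocyte markers together held 93.3 and 111 CPM in silenced resistant cells, 105 and 114 CPM in resistant control cells, and 95.2 and 97.0 CPM in sensitive cells. Most of this was CD68, a lysosomal protein, while PTPRC, which defines leukocytes, reached 0.76 CPM at most. The fibroblast and stellate-cell list summed to 4846 and 4780 CPM in silenced resistant cells and to 4355 and 4332 CPM in sensitive cells, most of it VIM, while DES was at 0 CPM in all 6. In bulk samples such as these, fewer cells of a type and less RNA per cell cannot be told apart.

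COL6A3 itself was lowered by its siRNA but stayed above its level in sensitive cells. In GRCh38 it spans chromosome 2, 237324018 to 237414164 (gene identifier 1293). It held 42.7 and 45.0 CPM in silenced resistant cells, 135 and 136 CPM in resistant control cells, and 17.8 and 19.7 CPM in sensitive cells. None of the 3 groups overlapped, and silenced resistant cells lay between the others. The log2 fold change of silenced resistant over sensitive cells was 1.23 (SE 0.12; edgeR's quasi-likelihood test, Benjamini-Hochberg adjusted p = 5.13e-08), and that of resistant control over sensitive cells was 2.86. The counts are summed over the gene and do not separate the endotrophin-coding end from the rest.

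The 2 partner chains were higher in silenced resistant than in sensitive cells too, by different routes. COL6A1 (chromosome 21, 45981770 to 46005048) held 121 and 135 CPM in silenced resistant cells, 29.99 and 41.1 CPM in resistant control cells, and 50.5 and 54.2 CPM in sensitive cells. Its log2 fold change over sensitive cells was 1.29 (SE 0.12) with silencing and -0.56 without, so it crossed. Without resistant control replicate 1 the value of control cells was -0.33 and was not called. COL6A2 (chromosome 21, 46098112 to 46132848) was at 209 and 259 CPM in silenced resistant cells, 118 and 132 CPM in resistant control cells, and 104 and 115 CPM in sensitive cells. Its log2 fold change over sensitive cells was 1.09 (SE 0.10) with silencing, and 0.19 (not called) without. CD44 (chromosome 11, 35139171 to 35232402) held 1767 and 1829 CPM in silenced resistant cells, against 1408 and 1382 CPM in sensitive cells, a log2 fold change of 0.37 (SE 0.051; edgeR, Benjamini-Hochberg adjusted p = 8.68e-06). Resistant control cells, at 1425 and 1390 CPM, did not differ detectably from sensitive cells in CD44.

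Of the 15684 genes tested, 4322 differed between silenced resistant and sensitive cells (27.6%; edgeR's quasi-likelihood test, Benjamini-Hochberg adjusted p under 0.05). In silenced resistant cells 2049 were higher (13.1%) and 2273 lower (14.5%), and 575 and 544 of them by over 2-fold. Without silenced replicate 1, 1491 were lower. The counts of every gene list in this report are to be read beside these shares of all genes tested. Resistant control cells differed from sensitive cells in 2480 genes (15.8%), with 1022 higher (6.52%) and 1458 lower (9.3%). Silenced and control resistant cells differed in 3505 genes (22.3%), with 1793 higher (11.4%) and 1712 lower (10.9%) after silencing. These 3 comparisons share libraries in pairs: both comparisons with sensitive cells share the sensitive ones, both with silenced cells the silenced ones, and both with resistant control cells the resistant control ones. Counts that combine them are therefore descriptions, and an error in the resistant control libraries would move the comparison with silenced and that with sensitive cells in opposite directions.

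**Figure D1:**
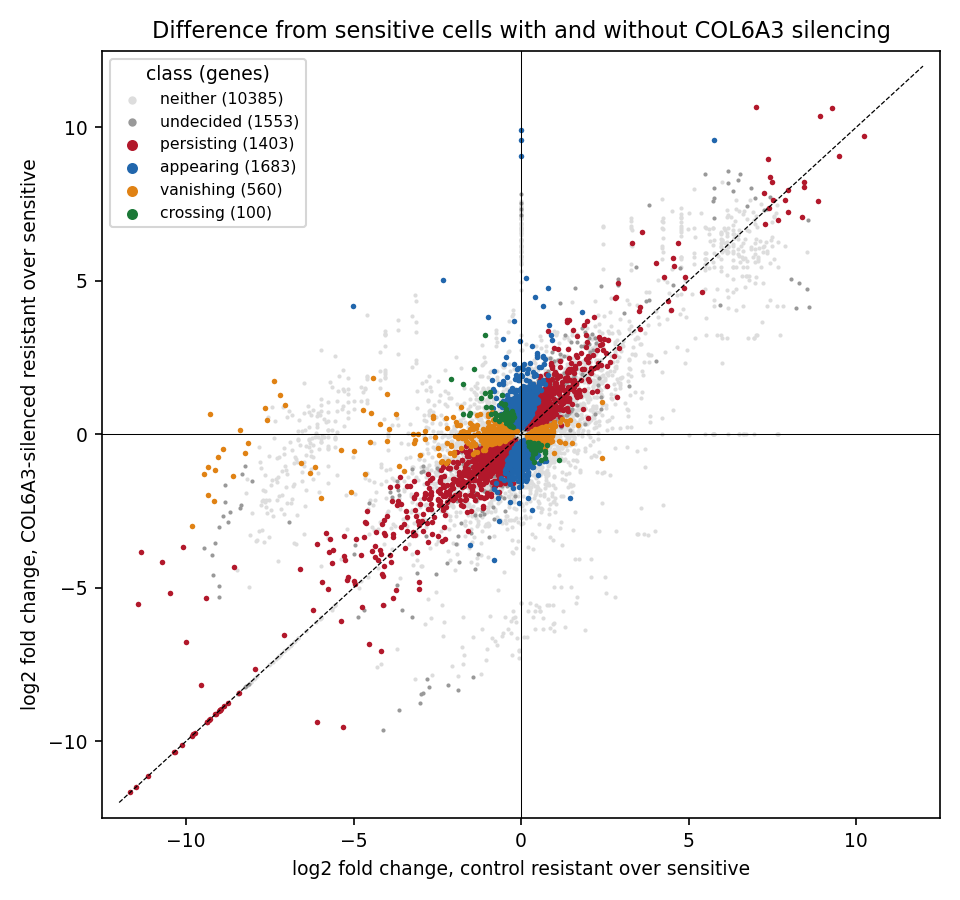
Each point is 1 of 15684 genes, with its log2 fold change of silenced resistant over sensitive cells on the vertical axis and of control resistant over sensitive cells on the horizontal axis; both axes share the sensitive libraries, and the dashed line marks equal values. Colours give the classes described in the text: 1403 persisting genes run along the dashed line, 1683 appearing genes along the vertical zero line, 560 vanishing genes along the horizontal zero line, and 100 crossing genes lie in the opposite quadrants. Points beyond about 8 in size are mostly genes at 0 in 1 group, whose fitted values are not bounds.

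Each gene was put in a class by its calls in the 3 comparisons. A difference persisted in 1403 genes, called in the same direction with and without silencing: 567 were higher and 836 lower than in sensitive cells. They were 32.5% of the genes called with silencing and 56.6% of those called without. Among them, 1004 showed no called change on silencing, 254 moved further from sensitive cells and 145 moved part of the way back, of which 125 were lower in resistant cells. A difference vanished in 560 genes (22.6% of those called without silencing), which moved back on silencing by a called change and were no longer called against sensitive cells. A difference appeared in 1683 genes (38.9% of those called with silencing), which silencing moved away from sensitive cells: 803 were higher and 880 lower. Another 100 genes crossed, being called on opposite sides of sensitive cells. For 417 differences lost and 1136 gained, the change on silencing itself was not called, so these were undecided. Leaving out 1 library at a time gave 224 to 804 undecided losses and 720 to 1868 undecided gains. Without silenced replicate 1 they were 804 and 720, and without resistant control replicate 1 they were 224 and 1868. Leaving out silenced replicate 1 brought the appearing genes to 1082, and leaving out sensitive replicate 1 or 2 brought the crossing genes to 60 or 51.

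**Figure D2:**
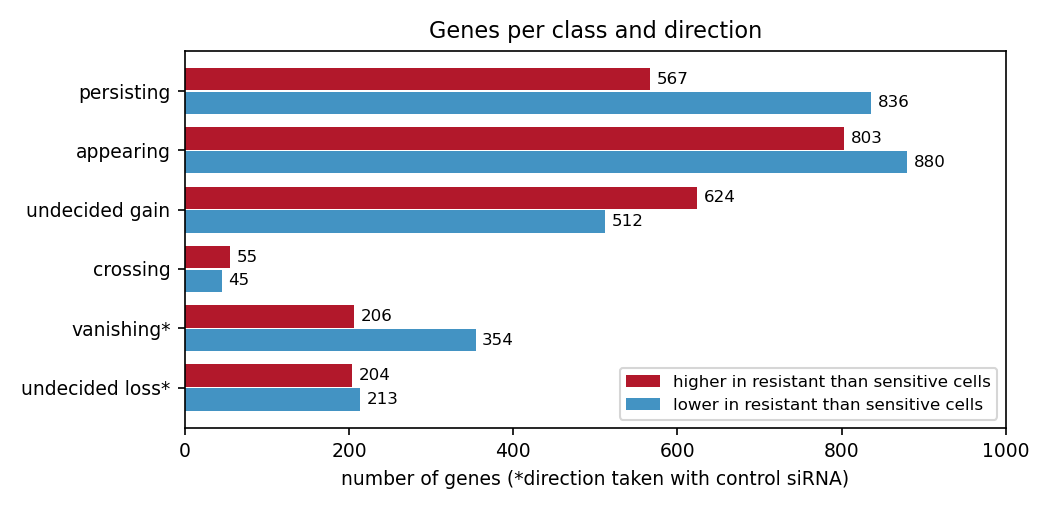
Bars give the number of genes in each class, upper bars those higher and lower bars those lower in resistant than in sensitive cells. Direction is that of silenced resistant cells, except in the 2 classes marked with an asterisk, where it is that of resistant control cells. More persisting genes were lower (836) than higher (567), and 354 of the vanishing genes had been lower in resistant control cells, against 206 higher.

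Among persisting differences, the largest concerned genes that were off on 1 side. FYB1, an adaptor protein of immune-cell signalling, held 5.83 and 5.99 CPM in silenced resistant cells, 0.486 and 0.442 CPM in resistant control cells and 0 in both sensitive libraries. Against a floor of 3 counts per library, it was at least 65.9-fold higher in silenced resistant than in sensitive cells. ARMCX2, TM4SF4 and the long noncoding RNA UCA1 were at 0 in every resistant library, silenced or control, and at 6.28 to 12.8 CPM in sensitive cells. They were at least 133-, 117- and 91.4-fold lower in silenced resistant cells. These bounds and that of FYB1 rest on the counts as deposited, of which most low ones were even. With halved counts the same floor would give lower bounds, which were not computed. DPYSL3, a cytoskeletal regulator of neurite and cell shape, was at 0.189 and 0 CPM in silenced resistant cells and at 23.5 and 29.9 CPM in sensitive cells. GLUL, which makes glutamine from glutamate, was at 0.378 and 0.110 CPM against 50.4 and 45.2 CPM in sensitive cells, a log2 fold change of -7.63 (SE 0.59); it has near-identical copies, so its count is uncertain.

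Other genes with a persisting rise were DACT1, MEF2C and CNTN1. DACT1, a modulator of Wnt signalling, held 19.2 and 22.7 CPM in silenced resistant cells, 2.66 and 2.56 CPM in resistant control cells, and 0 and 0.453 CPM in sensitive cells. MEF2C, a transcription factor of muscle and endothelial cells, was at 27.7 and 30.6 CPM in silenced resistant cells, 5.44 and 13.2 CPM in resistant control cells, and 2.44 and 0.0648 CPM in sensitive cells. CNTN1, a neural cell adhesion molecule, was at 21.5 and 20.4 CPM in silenced resistant cells and 1.12 and 1.23 CPM in sensitive cells, a log2 fold change of 4.15 (SE 0.24). In each of the 3 the groups were apart and silencing raised the level further, a change that was no longer called without resistant control replicate 1 for MEF2C and without any single resistant library for CNTN1.

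Matrix glycoproteins were more often higher than lower in silenced resistant cells. Of 32 matrix glycoprotein and proteoglycan genes tested, 14 rose, 5 fell and 13 did not pass the test against sensitive cells, with a median log2 fold change of 0.51, beside -0.0044 over all genes. Without silencing the count was 9 and 7. FN1, fibronectin (chromosome 2, 215360865 to 215436068), held 5533 and 6073 CPM in silenced resistant cells, 2728 and 2916 CPM in resistant control cells, and 691 and 745 CPM in sensitive cells. All libraries kept this order of groups, and the log2 fold change of silenced resistant over sensitive cells was 3.02 (SE 0.053; edgeR, Benjamini-Hochberg adjusted p = 4.99e-20). FBN1, the microfibril protein fibrillin, was at 113 and 122 CPM in silenced resistant cells, 26.1 and 22.02 CPM in resistant control cells, and 10.9 and 6.70 CPM in sensitive cells. VCAN, the proteoglycan versican, was at 22.3 and 23.6 CPM in silenced resistant cells and 3.92 CPM in each sensitive library, with no called change on silencing unless either sensitive library was left out. GPC6, a membrane-bound heparan sulfate proteoglycan, was higher after silencing alone, at 19.7 and 23.7 CPM in silenced resistant cells, 8.58 and 5.50 CPM in resistant control cells, and 6.57 and 6.15 CPM in sensitive cells.

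The fibrillar and other collagens went both ways. Of 17 tested, 5 rose, 6 fell and 6 did not pass. COL1A1, a chain of the main fibrillar collagen, held 129 and 143 CPM in silenced resistant cells, 25.3 and 31.1 CPM in resistant control cells, and 11.2 and 10.5 CPM in sensitive cells. Its log2 fold change over sensitive cells was 3.65 (SE 0.12) with silencing and 1.38 (SE 0.13) without. COL5A1 followed the same order, at 261 and 273, 136 and 154, and 37.6 and 46.7 CPM in silenced resistant, resistant control and sensitive cells. Its partner chain COL5A2 instead held 4.79 and 2.15 CPM in silenced resistant cells against 33.3 and 33.8 CPM in sensitive cells, and COL18A1, a basement membrane collagen, 10.0 and 12.8 CPM against 70.2 and 78.4 CPM. COL1A1 is also in the list of fibroblast and stellate-cell markers, of which 4 rose and 1 fell among 16 tested. In that list THY1 held 133 and 138 CPM in silenced resistant cells and 88.6 and 99.2 CPM in sensitive cells, and PDGFRB 6.52 and 6.51 CPM against 2.60 and 3.37 CPM. PDGFRA reached 2.15 CPM and DCN 0.11 CPM at most in silenced resistant cells. The part of these markers in the collagen differences was not tested.

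Several matrix proteases and their inhibitors carried large persisting differences. Of 32 matrix proteases and inhibitors, 10 rose and 9 fell, and 16 of these 19 differences persisted. MMP2, a gelatinase, held 46.5 and 61.8 CPM in silenced resistant cells, 12.7 and 13.6 CPM in resistant control cells, and 2.52 and 0.972 CPM in sensitive cells. ADAMTS12, a secreted matrix protease, was at 24.7 and 24.3 CPM in silenced resistant cells and 1.59 and 1.36 CPM in sensitive cells, with resistant control cells at 31.5 and 35.1 CPM. TIMP3, a matrix-bound inhibitor of metalloproteinases (chromosome 22, 32801705 to 32863041), was at 16.8 and 14.4 CPM in silenced resistant cells, 3.56 and 5.21 CPM in resistant control cells, and 213 and 216 CPM in sensitive cells. Silencing raised TIMP3 by 1.83 on the log2 scale, and its log2 fold change against sensitive cells was still -3.78 (SE 0.13). LOX, which crosslinks collagen, showed the same partial return, at 73.6 and 70.7, 37.3 and 34.6, and 189 and 187 CPM in silenced resistant, resistant control and sensitive cells. Of 20 genes of matrix crosslinking and collagen processing, 5 rose, 6 fell and 9 did not pass against sensitive cells.

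**Figure D3:**
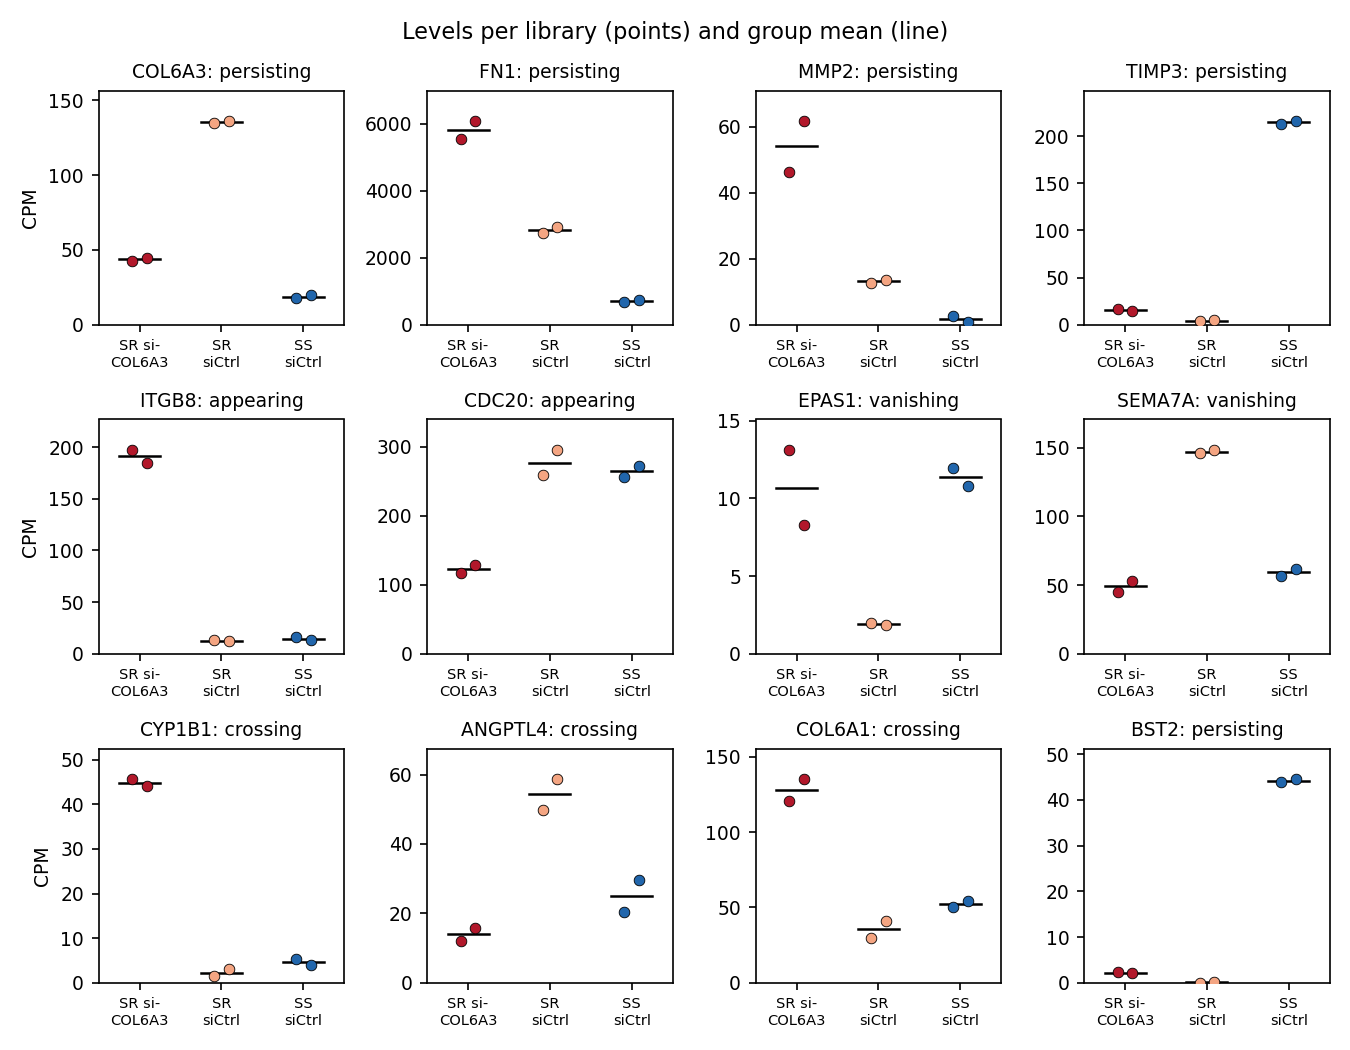
Points give CPM in each of the 2 libraries of silenced resistant (SR siCOL6A3), resistant control (SR siCtrl) and sensitive (SS siCtrl) cells, lines the group mean, on linear axes from 0, for 12 genes with their class. FN1 and MMP2 stepped up from right to left, TIMP3 and BST2 stayed low in both resistant groups, ITGB8 and CDC20 stood apart only in silenced cells, and EPAS1 and SEMA7A stood apart only in resistant control cells.

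Genes of the interferon response, which cells use against viruses, stayed low in resistant cells after silencing, although many moved part of the way back. Of 41 tested, 0 rose, 30 fell and 11 did not pass, with a median log2 fold change of -1.48 against sensitive cells; without silencing 37 fell and the median was -1.96. Between silenced and control resistant cells 21 rose and 0 fell. The difference persisted in 28 genes, narrowing in 15, and it vanished in 6. BST2, a membrane tether of budding viruses, held 2.33 and 2.07 CPM in silenced resistant cells, 0 and 0.221 CPM in resistant control cells, and 43.9 and 44.5 CPM in sensitive cells. IFI44L was at 0.189 and 0.166 CPM in silenced resistant cells and at 4.36 and 5.25 CPM in sensitive cells. IFI6, chosen here after its values were seen, averaged 15.1 ± 0.61 CPM in silenced resistant cells, 16.4 ± 4.01 CPM in resistant control cells and 148 ± 18.5 CPM in sensitive cells (SD, n = 2 each), with no called change on silencing. ISG15, a ubiquitin-like modifier also chosen after its values were seen, averaged 9.14 ± 1.39, 3.48 ± 2.00 and 45.1 ± 6.80 CPM in silenced resistant, resistant control and sensitive cells.

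The promoters of these 4 genes are shown because their members moved together. The motif searched was the core of the interferon-stimulated response element, GAAANNGAA on either strand, in 250 bases before to 50 after each gene's start (RefSeq, GRCh38.p14). It was found for 24 of the 33 interferon genes with a promoter in the table (72.7%). The share was 8.29% of all 27305 promoters there and 6.71% of those of genes tested. The list was made of interferon genes, so its high share says nothing about these data. By class, the motif was found for 17 of 21 persisting and 1 of 5 vanishing interferon genes, a split that was not tested. A match is a description of the letters and not a site shown to be used. Capitals mark 1 match in each, the nearest to the start, and further matches in the windows of IFI6, ISG15 and BST2 are in lower case. The first base in capitals lies at -93, -101, -73 and -124 from the start in the order given, in windows on chr1:27672247-27672315 (minus strand), chr1:1013366-1013434 (plus), chr1:78620345-78620413 (plus) and chr19:17405716-17405784 (minus), each 5′ to 3′:
IFI6: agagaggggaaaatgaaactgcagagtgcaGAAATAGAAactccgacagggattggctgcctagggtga
ISG15: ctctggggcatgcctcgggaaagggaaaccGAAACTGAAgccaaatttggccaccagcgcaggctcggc
IFI44L: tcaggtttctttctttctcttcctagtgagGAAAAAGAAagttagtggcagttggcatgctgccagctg
BST2: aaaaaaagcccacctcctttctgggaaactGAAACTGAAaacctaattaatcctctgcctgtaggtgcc

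The 6 interferon genes whose difference vanished included TRIM22, an antiviral ubiquitin ligase, and DDX60, a helicase of RNA sensing, both named after their values were seen. TRIM22 averaged 38.7 ± 7.94 CPM in silenced resistant cells, 8.22 ± 1.48 CPM in resistant control cells and 31.2 ± 0.666 CPM in sensitive cells (SD, n = 2 each). DDX60 averaged 29.98 ± 1.19, 13.4 ± 0.0557 and 28.5 ± 1.76 CPM in the same order. In both, silenced resistant and sensitive cells differed by less than could be called, at log2 fold changes of 0.31 and 0.07.

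Genes of antigen presentation were more often lower than higher as well. Of 21 tested, 3 rose and 11 fell, and 11 differences persisted. Many of these were small: with a fold of at least 1.5, 0 rose, 5 fell and 4 persisted. By limma on FPKM plus 0.1, 2 rose, 7 fell and 5 persisted. HLA-B held 17.5 and 16.3 CPM in silenced resistant cells, 12.02 and 14.2 CPM in resistant control cells, and 66.2 and 78.9 CPM in sensitive cells. HLA-C was at 52.98 and 54.0, 40.9 and 53.4, and 114 and 134 CPM in silenced resistant, resistant control and sensitive cells. HLA genes resemble each other closely, so how reads were divided between them is uncertain.

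Several epithelial genes stayed low, with 3 higher, 9 lower and 12 not called of 24 tested, and all 9 falls persisting. KRT19, a keratin of bile duct epithelium, held 2.33 and 2.15 CPM in silenced resistant cells, 2.01 and 1.07 CPM in resistant control cells, and 214 and 201 CPM in sensitive cells, a log2 fold change of -6.53 (SE 0.20), in a gene with near-identical copies and so an uncertain count. CLDN7, a tight junction protein, was at 5.95 and 6.54 CPM in silenced resistant cells and 45.3 and 50.7 CPM in sensitive cells. The whole epithelial and keratin list, with its abundant members, summed to 3905 and 4196 CPM in silenced resistant cells and to 4417 and 4487 CPM in sensitive cells. Caveolae, the small pits of the plasma membrane, showed 8 falls and 0 rises among 10 genes. CAV1, their main coat protein, was at 433 and 460 CPM in silenced resistant cells, 546 and 509 CPM in resistant control cells, and 1490 and 1470 CPM in sensitive cells. CAVIN2, which shapes them, was at 128 and 114 CPM in silenced resistant cells and 558 and 531 CPM in sensitive cells. Of 10 IGF-binding proteins and relatives, which hold insulin-like growth factors in the medium, 6 fell and 0 rose. IGFBP3 was at 142 and 147 CPM in silenced resistant cells, against 360 and 395 CPM in sensitive cells. IGF1R, the receptor of these growth factors, was higher at 74.6 and 74.9, 41.9 and 45.6, and 29.1 and 24.2 CPM in silenced resistant, resistant control and sensitive cells.

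Targets of YAP and TEAD, transcription factors that respond to matrix stiffness, fell further after silencing. Of 30 tested, 1 rose and 21 fell with silencing (median -0.66), and 1 rose and 14 fell without (median -0.37); between silenced and control resistant cells 3 rose and 14 fell. EDN1, the vasoconstrictor endothelin, held 16.2 and 11.7 CPM in silenced resistant cells, 25.8 and 30.04 CPM in resistant control cells, and 80.3 and 77.4 CPM in sensitive cells. F3, tissue factor of blood clotting, was at 76.8 and 70.6, 147 and 148, and 242 and 214 CPM in the same order. The libraries of the 3 groups did not overlap in either gene.

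Where differences vanished, the genes described here moved back towards the level of sensitive cells. A missing call does not show equal levels, and 19 of the 560 vanishing genes still had a fitted difference of 2-fold or more. SEMA7A, a membrane-anchored semaphorin, held 45.1 and 52.9 CPM in silenced resistant cells, 146 and 148 CPM in resistant control cells, and 56.9 and 62.0 CPM in sensitive cells. The silenced libraries lay below both sensitive ones, with a log2 fold change of -0.28 (95% interval -0.51 to -0.05) that was not called after Benjamini-Hochberg adjustment in edgeR (adjusted p = 0.0673). EPHB1, an ephrin receptor, was at 9.89 and 7.95, 25.2 and 20.7, and 10.7 and 10.0 CPM in silenced resistant, resistant control and sensitive cells. EGR1, an immediate-early transcription factor, was at 5.89 and 4.08 CPM in silenced resistant cells, 16.1 and 18.9 CPM in resistant control cells, and 6.11 and 6.12 CPM in sensitive cells. Its interval against sensitive cells ran from -0.82 to 0.23 on the log2 scale.

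Other vanishing genes had been low in resistant control cells. EPAS1, the hypoxia-inducible factor HIF-2α (chromosome 2, 46297407 to 46386697), held 13.1 and 8.28 CPM in silenced resistant cells, 2.01 and 1.83 CPM in resistant control cells, and 11.9 and 10.8 CPM in sensitive cells. The sensitive libraries lay between the silenced ones, and the interval of the log2 fold change, -0.79 to 0.61, leaves room for a moderate difference either way. CSF1, a growth factor of macrophages, was at 14.8 and 14.6, 2.40 and 3.41, and 9.15 and 13.1 CPM in silenced resistant, resistant control and sensitive cells. CD24, a small surface glycoprotein with near-identical gene copies and so an uncertain count, was at 13.2 and 15.8 CPM in silenced resistant cells, 3.34 and 0.821 CPM in resistant control cells, and 9.07 and 10.8 CPM in sensitive cells. In CSF1 and CD24 both silenced libraries lay above both sensitive ones, though the difference was not called.

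Integrins, the matrix receptors, divided among the classes. Of 17 tested, 4 rose, 1 fell and 12 did not pass against sensitive cells, where 27.6% of all genes tested were called. In 5 integrins a difference seen without silencing vanished, a count of 2 without silenced replicate 1 and of 3 without resistant control replicate 2. Over all 15684 genes, 560 vanished. Among the vanishing integrins, ITGA6, a laminin-receptor chain named after its values were seen, averaged 1118 ± 43.3 CPM in silenced resistant cells, 2092 ± 43.6 CPM in resistant control cells and 1091 ± 7.90 CPM in sensitive cells (SD, n = 2 each). ITGA2, a chain of a collagen receptor, persisted and widened, at 362 and 403, 220 and 237, and 104 and 112 CPM in silenced resistant, resistant control and sensitive cells. ITGB8, a chain of an integrin that activates latent TGF-beta (chromosome 7, 20329766 to 20415754), appeared. It held 197 and 185 CPM in silenced resistant cells, 13.2 and 12.4 CPM in resistant control cells, and 16.0 and 13.5 CPM in sensitive cells. Only the silenced libraries stood apart, with a log2 fold change over sensitive cells of 3.69 (SE 0.11; edgeR, Benjamini-Hochberg adjusted p = 7.16e-16).

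Other rises that appeared were those of SLITRK6, GASK1B and ALDH1A3. SLITRK6, a neuronal membrane protein, held 27.1 and 22.3 CPM in silenced resistant cells, 1.04 and 2.15 CPM in resistant control cells, and 0.384 and 1.49 CPM in sensitive cells. Without sensitive replicate 2, the log2 fold change of resistant control over sensitive cells reached 2.05 and was called, so SLITRK6 would then persist. ALDH1A3, which makes retinoic acid, was at 53.3 and 50.5, 7.71 and 4.80, and 7.70 and 4.92 CPM in silenced resistant, resistant control and sensitive cells, a log2 fold change of 3.03 (SE 0.21) with silencing and -0.02 without. GASK1B was at 11.1 and 8.44 CPM in silenced resistant cells and 0.630 and 1.04 CPM in sensitive cells.

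Cell-cycle genes moved together among the differences that appeared. Of 52 genes of G2 phase and mitosis, 0 rose, 42 fell and 10 did not pass in silenced resistant against sensitive cells, with a median log2 fold change of -0.57; without silencing 5 rose and 5 fell, with a median of 0.02. The fall appeared in 34 of them. Many falls were small: with a fold of at least 1.5, 25 genes fell and 18 appeared. CDC20, an activator of the anaphase-promoting complex, held 117 and 129 CPM in silenced resistant cells, 258 and 295 CPM in resistant control cells, and 257 and 272 CPM in sensitive cells. PLK1, a mitotic kinase, was at 30.5 and 27.9 CPM in silenced resistant cells, 59.6 and 59.8 CPM in resistant control cells, and 66.4 and 56.7 CPM in sensitive cells. In both genes the silenced libraries lay below all others, while resistant control and sensitive cells overlapped. PRC1, which bundles spindle microtubules, was lower in all resistant cells, at 66.0 and 57.5, 123 and 125, and 173 and 166 CPM in silenced resistant, resistant control and sensitive cells.

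The CDC20 and PLK1 promoters show the cell-cycle homology region, TTTGAA on either strand, a motif known from promoters that are active late in the cycle. It was found in 33 of the 44 genes of G2 phase and mitosis with a promoter in the same RefSeq table (75%) and in 19 of the 29 whose fall appeared (65.5%), against 15.4% of all promoters there. The CCAAT box, CCAAT on either strand, was the only other motif searched, and it was found in 33 of the same 44 (75%), against 35.7% of all promoters. Among the promoters of all genes tested, the cell-cycle homology region was found in 10% and the CCAAT box in 36.3%. The list was made of G2 and mitosis genes, so its high shares say nothing about these data. The motifs were searched separately and may overlap. Capitals mark the motif at -65 and -29 from the start, in windows on chr1:43358886-43358951 and chr16:23678830-23678895, both on the plus strand, 5′ to 3′:
CDC20: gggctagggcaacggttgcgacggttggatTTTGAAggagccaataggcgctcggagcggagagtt
PLK1: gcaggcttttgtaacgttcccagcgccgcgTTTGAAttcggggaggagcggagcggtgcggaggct

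S-phase genes followed. Of 45 tested, 0 rose and 31 fell with silencing (median -0.50), while 5 rose and 2 fell without (median 0.11), and the fall appeared in 22. With a fold of at least 1.5, 11 fell and 8 appeared. CDC6, which loads the replicative helicase, held 38.4 and 36.3 CPM in silenced resistant cells, 106 and 93.7 CPM in resistant control cells, and 87.6 and 86.1 CPM in sensitive cells. CCND1, cyclin D1 of the G1 phase, was at 390 and 400, 1011 and 996, and 1121 and 1260 CPM in silenced resistant, resistant control and sensitive cells, a log2 fold change over sensitive cells of -1.59 (SE 0.066). Without silencing its value was -0.25, a call lost without resistant control replicate 1 or 2 or sensitive replicate 2 (-0.24, -0.22 and -0.16). Ribosome biogenesis genes showed 1 rise and 16 falls among 29 with silencing (median -0.29), and 0 of either without. Requiring a fold of at least 1.5 left 0 rises and 4 falls, and 2 genes appeared. Without silenced replicate 1 or 2 the falls numbered 10 each time, and the 14 falls that appeared numbered 6. POLR1A, the large subunit of the polymerase that makes ribosomal RNA, was at 95.8 and 112 CPM in silenced resistant cells and 178 and 169 CPM in sensitive cells.

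Targets of p53, the damage-response factor, went both ways against sensitive cells. Of 34 tested, 13 rose and 7 fell with silencing (median 0.17), while 2 rose and 13 fell without (median -0.28). Between silenced and control resistant cells, 20 rose, 2 fell and 12 did not pass (median 0.35). Over all genes tested, 11.4% rose and 10.9% fell in that comparison. TP53INP1, a promoter of cell death and autophagy, held 115 and 117 CPM in silenced resistant cells, 31.6 and 29.6 CPM in resistant control cells, and 33.3 and 32.3 CPM in sensitive cells. ZMAT3, an RNA-binding p53 target, was at 164 and 149, 66.2 and 58.9, and 52.3 and 53.3 CPM in the same order. CDKN1A, the p21 cell-cycle inhibitor and a central target, was instead lower, averaging 198 ± 25.5 CPM in silenced resistant cells and 289 ± 10.7 CPM in sensitive cells (SD, n = 2 each); it was named after its values were seen. AEN, a nuclease of cell death, was also lower, at 52.98 and 60.2 CPM in silenced resistant cells, against 138 and 136 CPM in sensitive cells. Resistant control levels of CDKN1A and AEN are not given here. These values therefore do not tell a fall on silencing from a difference already there without it.

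Among the 100 crossing genes, CYP1B1, an enzyme that oxidises aromatic compounds and oestrogens (chromosome 2, 38067509 to 38076151), held 45.7 and 44.1 CPM in silenced resistant cells, 1.46 and 3.06 CPM in resistant control cells, and 5.42 and 4.05 CPM in sensitive cells. Its log2 fold change over sensitive cells was 3.24 (SE 0.21) with silencing and -1.07 (SE 0.25) without; leaving out resistant control replicate 1 made the second value -0.62, which was not called. OLFML2A, a secreted matrix protein, was at 12.505 and 13.9 CPM in silenced resistant cells, 1.23 and 1.33 CPM in resistant control cells, and 3.86 and 4.60 CPM in sensitive cells. ANGPTL4, an inhibitor of lipoprotein lipase, crossed the other way, at 12.001 and 15.8, 49.8 and 58.7, and 20.3 and 29.6 CPM in silenced resistant, resistant control and sensitive cells. G0S2, an inhibitor of fat breakdown, was at 141 and 140, 369 and 407, and 231 and 247 CPM in that order. The 3 groups did not overlap in any of these genes. BIRC3, an inhibitor of cell death, was at 52.4 and 51.3, 16.9 and 21.1, and 33.3 and 31.5 CPM.

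Stress and metabolic genes divided among the classes. Of 31 amino-acid stress genes under the factor ATF4, 4 rose and 15 fell with silencing, and 2 rose and 15 fell without. PHGDH, the first enzyme of serine synthesis, held 26.6 and 32.0 CPM in silenced resistant cells, 53.9 and 53.2 CPM in resistant control cells, and 131 and 113 CPM in sensitive cells. Of 29 chaperone and unfolded-protein genes, 2 rose and 14 fell with silencing, and 2 and 6 without; HSPA5, the main chaperone of the endoplasmic reticulum, was at 592 and 618 CPM in silenced resistant cells and 1111 and 1046 CPM in sensitive cells. Among 36 hypoxia and glycolysis genes, 3 rose and 17 fell. HIF1A was at 72.6 and 75.4, 88.9 and 89.3, and 201 and 196 CPM in silenced resistant, resistant control and sensitive cells, while HK2, the first enzyme of glycolysis, was at 56.0 and 61.5, 128 and 140, and 173 and 140 CPM. The fall of HK2 appeared with silencing, and persisted instead when sensitive replicate 2 was left out. Sterol and fatty-acid synthesis genes divided, with 9 higher and 5 lower of 36, and 3 lower without silenced replicate 1 or sensitive replicate 2. SCD, a fatty-acid desaturase, appeared, at 3562 and 3740 CPM in silenced resistant cells against 2179 and 2195 CPM in sensitive cells.

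Among kinases that sorafenib inhibits and their pathway, 5 rose and 3 fell of 22, and 1 fell without silenced replicate 2. Over all genes tested, 27.6% were called. KIT was at 14.1 and 12.2, 21.5 and 20.8, and 37.5 and 39.1 CPM in silenced resistant, resistant control and sensitive cells, and FGFR1 at 132 and 144, 95.6 and 95.4, and 76.6 and 89.7 CPM. The receptor AXL fell with silencing, to 524 and 615 CPM in silenced resistant cells, against 1114 and 989 CPM in sensitive cells, where resistant control cells held 1049 and 1249 CPM. MET, the receptor of hepatocyte growth factor, was low in all resistant cells, at 166 and 177 CPM with silencing, 184 and 168 CPM without, and 318 and 336 CPM in sensitive cells.

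**Figure D4:**
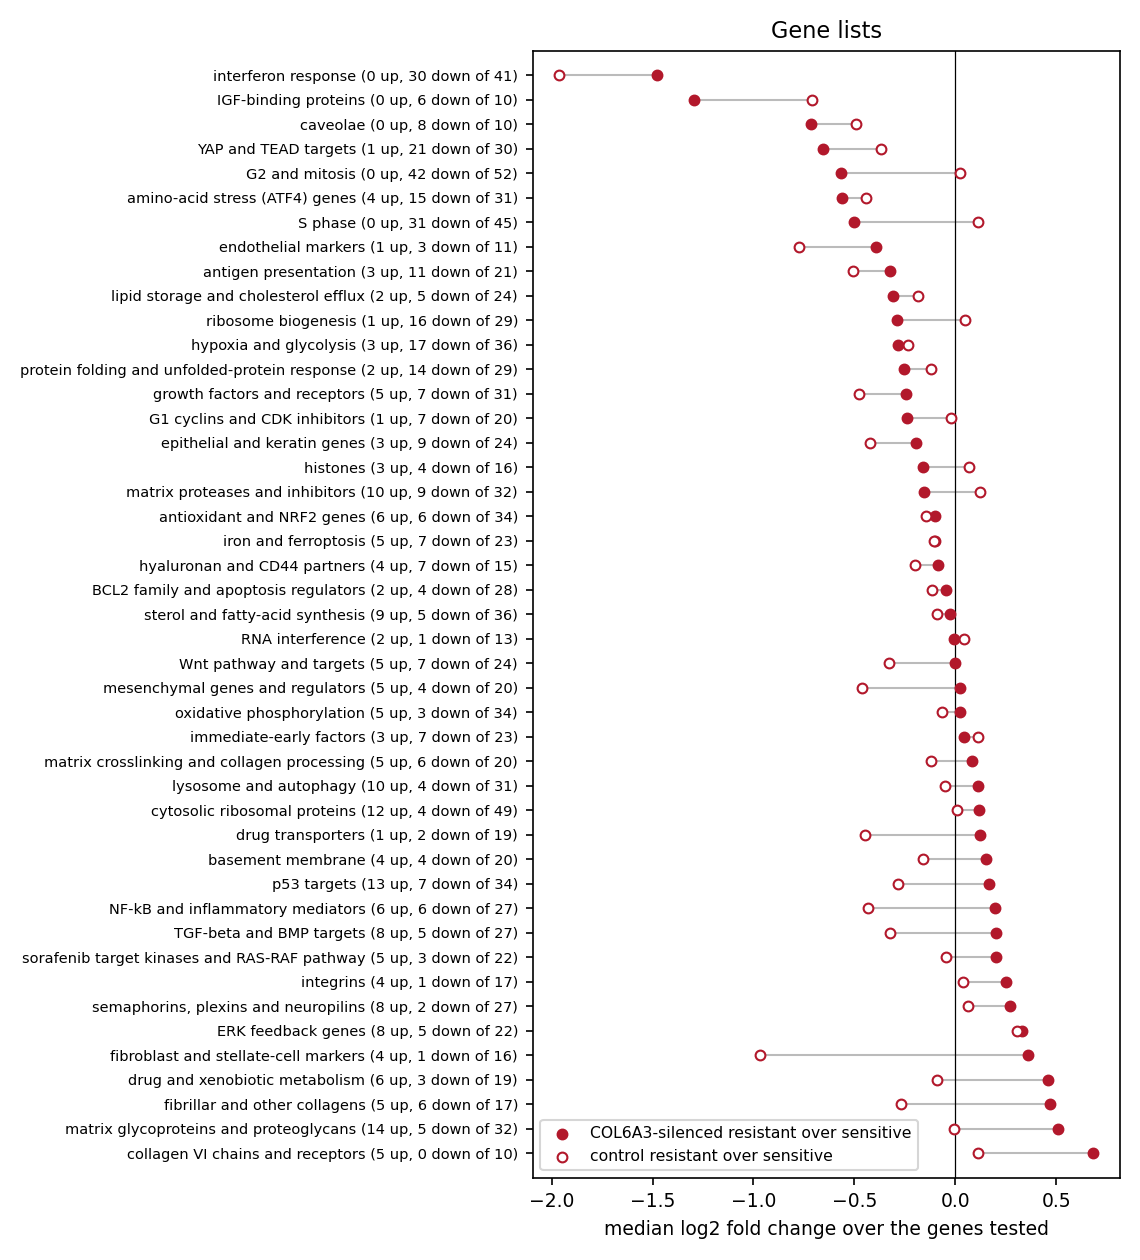
Filled points give the median log2 fold change of silenced resistant over sensitive cells and open points that of control resistant over sensitive cells, for each gene list with at least 10 genes tested; labels give the genes higher and lower with silencing. The interferon list lies lowest in both at -1.48 and -1.96, and the lists of S phase and of G2 and mitosis stand near 0 with control siRNA and at -0.50 and -0.57 with silencing. Both points of a list share the sensitive libraries.

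Of 217 genes named by rule, 147 kept their class when any 1 library of the 3 groups was left out and 70 changed it at least once. Calls with silencing and calls without came from 2 libraries a group. A difference that was not called, with silencing or without, is not shown to be absent there.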

How the data were processed

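RNA was measured in 8 libraries, 2 for each of 4 groups, from poly(A) RNA per the labels' protocols. The authors deposited raw read counts per gene and FPKM values (fragments scaled to gene length and library total), on GRCh38 per the submitters' processing notes. The aligner, counter, annotation and strand setting were not stated there or in the labels. The deposited FPKM equal the counts divided by gene length and library total (12100 genes, largest relative spread 4.87e-16). In every library 72.78% to 77.55% of counts from 1 to 20 were even, so halved counts were tried too. Members and gene lists were chosen with earlier results of these data known.

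Counts were fitted in R 4.3.3 with edgeR 4.0.16 (filterByExpr, TMM, quasi-likelihood test) over all 8 libraries, with Benjamini-Hochberg adjusted p under 0.05 as the call. Classes combined the calls of the 3 comparisons. Named were COL6A3, COL6A1, COL6A2 and CD44, per class and direction the 6 largest changes with a mean of at least 5 CPM in the higher group and groups that did not overlap, and up to 4 called genes per list with the largest change. Symbols of uncharacterised loci, antisense, divergent or intronic transcripts and small RNA genes were left out, but not every noncoding gene. Other genes are marked as chosen after their values were seen. Libraries were not paired by replicate number in the main fit. Deviations of the replicates showed little correlation between groups (-0.0489 to 0.0697), which does not exclude pairing. Floors of 3 counts per library and intervals cover counting error or the fitted spread only. Alternatives were DESeq2 1.42.0, limma 3.58.1 on log2 FPKM plus 0.1 or 1, other scaling, filters and thresholds, a replicate block, and leaving out libraries. Promoter sequences came from RefSeq (GRCh38.p14). Only some of the genes that the rule names are described.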

Additional observations from a re-analysis of the deposited data

How the results depend on the processing

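No gene named by rule turned its direction under the alternatives in which it was tested; 201 of 217 were tested under the strict low-count filter and 193 with the compared 4 libraries only. At adjusted p under 0.01, 2836 genes were called between silenced resistant and sensitive cells (1303 higher), 1465 between resistant control and sensitive cells and 2241 between silenced and control resistant cells, with 858 persisting, 307 vanishing, 1073 appearing and 33 crossing. With a fold of at least 1.5 these were 2435 (1204 higher, 1231 lower), 1444, 1758, 802, 283, 750 and 22. Crossing genes numbered 57 and 54 by limma on FPKM plus 0.1 and plus 1. Class members changed as well as class sizes. By limma on FPKM plus 0.1, 963 of the 1403 persisting and 320 of the 560 vanishing genes kept their class. So did 1134 of the 1683 appearing and 53 of the 100 crossing genes. Leaving out 1 library also changed which genes each class held. Leaving out 1 library at a time gave 1491 to 2205 lower genes, 1082 to 1638 appearing and 51 to 90 crossing. Leaving out SR_siCtrl replicate 1 and SS_siCtrl replicate 2 together, the libraries with the fewest genes detected and an alternative chosen after seeing the data, gave 1538 calls for resistant control cells, 935 persisting and 42 crossing genes. The cause of these shifts was not tested. With the replicate number as a block, 4428 genes were called between silenced resistant and sensitive cells and no call of a gene named by rule was lost. DESeq2 called 4434 and the compared 4 libraries alone 4086. Calls lost among the 217 named genes were at most 18, without silenced replicate 1.

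With 2 libraries a group, small changes of weakly expressed genes were not detectable, and genes near 0 have bounds only. The siRNA, the resistance and the single populations cannot be told apart in the main comparison.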
